A study of Homo sapiens with 2 samples.

Results

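The collagen genes of HCT116, a human colorectal carcinoma cell line, were compared between a CREB1 knockout clone and CREB1 wild-type cells of the same line, with 1 RNA sequencing library of each. The family was taken as every protein-coding gene whose symbol is COL, a number, A and a number, and the rule used no measured value. It found 44 genes among the 57820 gene identifiers of the deposited table. Per the labels' protocols, the knockout cells were a clone grown from a lone cell after delivery of a plasmid (PX461) with nickase Cas9 and guide RNAs against CREB1, kept because CREB1 was absent. The labels do not state whether the wild-type culture was itself clonal. Both cultures were kept in DMEM with fetal bovine serum, and total RNA depleted of ribosomal RNA was made into strand-specific libraries.

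Collagens are secreted or membrane-bound proteins whose chains wind in threes into a triple helix of glycine-rich repeats. Fibrillar collagens build tissue fibrils, type IV collagens the sheet of the basement membrane, and fibril-associated collagens with interrupted helices (FACIT) sit on fibril surfaces. Most fibrillar collagen of a colon tumour is made by fibroblasts, while epithelial cells are known for basement membrane and transmembrane collagens. Many collagens are heterotrimers, so a chain usually needs its partner chains for assembly and secretion. CREB1 is a transcription factor that binds the palindrome TGACGTCA and its shorter core TGACG.

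The promoter sequences of 3 genes are shown because they had the clearest difference between the libraries at high counts (COL18A1), were lower (COL17A1), or hold the CREB core beside a shared start region (COL4A5). Each is the 250 bases before a RefSeq start, on the strand of the gene, from the GRCh38.p14 table. Capitals mark TGACG or TATAAA or the reverse complement of either, and the upstream COL18A1 window holds none of them. The COL18A1 windows are chr21:45404915-45405164 and chr21:45455272-45455521 on the plus strand, that of COL17A1 is chr10:104085881-104086130 on the minus strand, and that of COL4A5 is chrX:108439588-108439837 on the plus strand.
COL18A1, upstream start: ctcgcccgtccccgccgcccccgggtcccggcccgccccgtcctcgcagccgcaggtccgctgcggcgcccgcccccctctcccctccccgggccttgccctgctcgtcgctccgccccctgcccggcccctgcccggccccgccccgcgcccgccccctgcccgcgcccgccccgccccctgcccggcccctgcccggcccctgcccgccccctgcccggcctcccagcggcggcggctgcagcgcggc
COL18A1, downstream start: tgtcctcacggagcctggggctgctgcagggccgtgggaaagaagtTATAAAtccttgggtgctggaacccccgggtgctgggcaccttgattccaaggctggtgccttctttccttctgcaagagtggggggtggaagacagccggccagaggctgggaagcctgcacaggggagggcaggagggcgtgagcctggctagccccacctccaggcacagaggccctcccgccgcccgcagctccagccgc
COL17A1: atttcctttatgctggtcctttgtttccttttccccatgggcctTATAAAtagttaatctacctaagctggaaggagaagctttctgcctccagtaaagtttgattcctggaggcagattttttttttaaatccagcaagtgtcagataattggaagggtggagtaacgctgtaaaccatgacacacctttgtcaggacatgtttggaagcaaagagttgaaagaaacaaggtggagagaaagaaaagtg
COL4A5: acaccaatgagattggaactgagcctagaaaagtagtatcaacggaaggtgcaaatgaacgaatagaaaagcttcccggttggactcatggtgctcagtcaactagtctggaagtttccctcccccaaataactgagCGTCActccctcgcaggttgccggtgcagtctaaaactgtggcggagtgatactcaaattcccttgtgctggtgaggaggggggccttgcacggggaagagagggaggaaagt

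Promoter windows were matched for 32 of the 44 genes (44 windows, since some genes have several starts), all but COL1A1, COL1A2, COL2A1, COL3A1, COL5A2, COL6A1, COL6A5, COL8A1, COL9A3, COL14A1, COL20A1 and COL22A1. The full palindrome TGACGTCA was found in 0 of the 44 windows, against 578 of 35116 windows of all genes (1.65%). The core TGACG, searched on both strands, was found in 8 of the 44 collagen windows, each of a different gene, and 21.2% of all windows hold it. Of the 14 collagen genes that were expressed and had a window, 4 held the core, namely COL4A5, COL7A1, COL11A2 and COL13A1. This is a count of genes, some with several windows, so it cannot be set against that share of windows. In COL4A5 it starts 113 bases before the start site. The sequence TATAAA lies 206 bases before the start of COL17A1 and 204 bases before the downstream start of COL18A1, and 10.7% of all windows hold it or its reverse complement. The 2 COL18A1 windows differ in base composition, with 88.4% G and C upstream and 66.4% downstream, while that of COL17A1 has 40.4%. These matches describe letters in fixed windows, and the table of counts holds no measure of binding.

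The knockout library held 31178312 expected counts and the wild-type library 34511071, of which protein-coding genes took 48.5% and 47.1%. The targeted gene, CREB1, had 499 counts in the knockout and 614 in the wild-type library (log2 ratio -0.23, interval -0.40 to -0.05), a sum that cannot show a short indel. Epithelial markers were present, with 2929 and 3129 counts of EPCAM and 50595 and 61305 of KRT8 in the knockout and wild-type libraries. Among the colon markers, CDX2 had 290 counts in the knockout and 327 in the wild-type library, and CDX1 had 0 counts in both. VIL1 had 9 counts in the knockout and 12 in the wild-type library. KRT20 had 19 counts in the knockout and 39 in the wild-type library (log2 ratio -0.95, interval -1.84 to -0.14). Of the 9 epithelial and colon markers, 6 passed the expression filter given below, 1 with a log2 ratio above 0 and 5 below. The 8 fibroblast markers summed to 98 counts in the knockout and 103 in the wild-type library, nearly all from ACTA2 (95 and 96), and LUM, FAP and POSTN were at 0 in both. Of 5 endothelial markers, PECAM1 was not analysed here, CDH5 was at 0 in both libraries, and the 4 analysed summed to 23 and 26 counts.

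Collagen RNA was more abundant in the knockout library. The 44 genes together had 14547 counts in the knockout and 10676 in the wild-type library. After scaling by the TMM method, which sets the libraries level over the bulk of genes, these are 455 and 317 CPM (counts scaled to a common library total). The ratio of the sums was 1.43 (95% interval 1.40 to 1.47). Intervals here are exact and cover counting error only, because a lone library per genotype has no spread between replicates and gives no p-value. In bulk RNA, fewer cells of a type and less RNA per cell cannot be told apart, and a difference between 2 cultures cannot be told apart from one between clones.

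Of the 44 genes, 19 were expressed, meaning a mean of at least 1 CPM over the 2 libraries. Among these 19, 17 had a log2 ratio above 0, where 51.2% of the 11640 expressed protein-coding genes did. The median log2 ratio, knockout over wild-type, was 0.35 over the 19 genes and 0.01 over all expressed protein-coding genes. The counting interval lay above no difference for 14 of the 19 and below it for 2, against 27.2% and 26.2% of expressed protein-coding genes. A gene was called when it differed at least 2-fold and its interval left out no difference. By that rule 2 collagen genes were called higher, COL18A1 and COL3A1, and 1 was called lower, COL17A1, where the background was 1.24% higher and 1.61% lower. COL3A1 passed the expression filter only through the knockout library, and without it 16 of 18 genes lay above 0 with a median of 0.35. Most of the 19 differences were small, and 10 genes lay within 0.5 of 0 on the log2 scale. With a threshold of 1.5-fold in place of 2-fold, 5 collagen genes were called higher and 2 lower (background 4.91% and 5.37%).

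**Figure D1:**
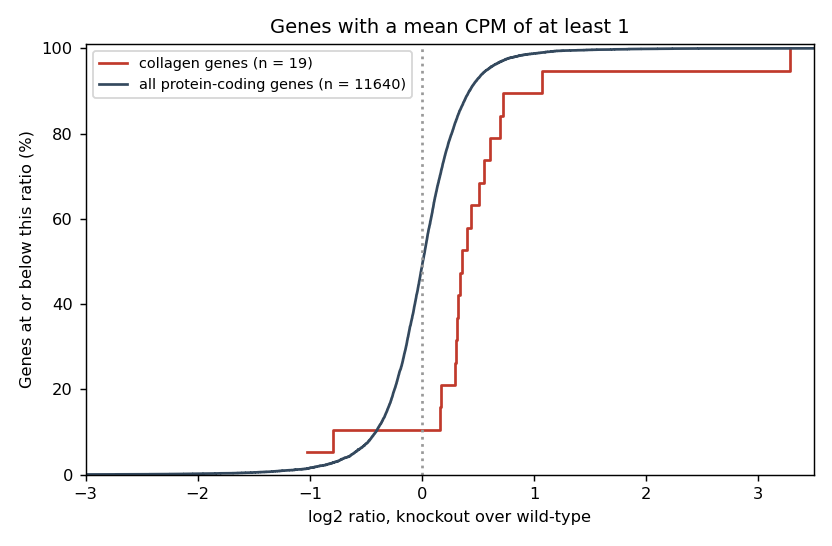
Cumulative share of genes (vertical axis, percent) at or below each log2 ratio, knockout over wild-type (horizontal axis), for the 19 expressed collagen genes and the 11640 expressed protein-coding genes. The collagen curve lies to the right of the other over most of its range, with 17 of 19 genes above 0, and 2 genes make up its left tail.

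COL18A1 had the largest share of collagen counts in the knockout library. It encodes the chain of type XVIII collagen, a basement membrane proteoglycan of the multiplexin class from whose end endostatin is released. It had 3431 counts in the knockout and 1722 in the wild-type library, or 107 and 51.2 CPM. The fold was 2.10 (interval 1.98 to 2.22; log2 ratio 1.07), and 2.34% of expressed protein-coding genes lay at least as far from 0. It took 23.6% of all collagen counts in the knockout library (exact interval 22.9% to 24.3%) and 16.1% in the wild-type library (15.4% to 16.8%), a comparison that does not depend on how the libraries are scaled. On chromosome 21 it has 18 expressed neighbours that are not collagens within 10 expressed genes on either side, with a median log2 ratio of 0.01, and 0 of them had a ratio as high. SLC19A1, a folate carrier gene on the opposite strand, shares 16.4% of the exon bases of COL18A1 in the annotation, and it had 733 counts in the knockout and 764 in the wild-type library (log2 ratio 0.01). Because the strand setting of the counting is not stated, reads from the shared bases could have gone to either gene. The gene-level counts do not separate transcripts from the 2 start sites shown above. Without COL18A1 the summed collagen counts were 1.31-fold higher in the knockout library. The other multiplexin gene, COL15A1, had 5 counts in the knockout and 10 in the wild-type library.

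Among the fibrillar collagens COL3A1, the chain of the homotrimeric type III collagen of elastic tissues, stood out. It had 69 counts in the knockout and 7 in the wild-type library, or 2.16 and 0.208 CPM. The ratio was 9.73-fold with a wide interval, 4.77 to 26.8, and 0.0945% of expressed protein-coding genes lay at least as far from 0. Even in the knockout library its level per kilobase of exon, 0.317 CPM, was far under the 12.6 CPM of COL18A1 there. COL5A2, its neighbour on chromosome 2 and a chain of the type V collagen that starts fibrils, had 149 counts in the knockout and 116 in the wild-type library (log2 ratio 0.43, interval 0.07 to 0.80). The number of COL3A1 counts per COL5A2 count was 0.463 in the knockout and 0.0603 in the wild-type library, a ratio of 7.64 (interval 3.34 to 20.5) that is free of scaling. None of the 19 expressed neighbours of COL3A1 that are not collagens reached its ratio, and their median was 0.09.

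The other expressed fibrillar genes were not called. COL27A1, a chain best known from cartilage, had 298 counts in the knockout and 206 in the wild-type library (log2 ratio 0.60, interval 0.35 to 0.87). COL11A2, a chain of the cartilage type XI collagen, had 120 and 113 counts (log2 ratio 0.16) in the knockout and wild-type libraries. COL1A1, the main chain of type I collagen, had 89 and 83 counts (log2 ratio 0.17), and both of these intervals included no difference.

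Partner chains of the fibrillar group were missing or near 0. COL1A2, the other chain of type I collagen, had 0 counts in both libraries, and so did COL11A1. COL5A1 had 2 counts in the knockout and 4 in the wild-type library. COL5A3 had 1 count in the knockout and 7 in the wild-type library. COL2A1, the main collagen of cartilage, had 0 counts in the knockout and 3 in the wild-type library. COL24A1 was higher at a low count, with 15 in the knockout and 4 in the wild-type library (3.61-fold, interval 1.26 to 16.3). It lay under the expression filter, and it would be called higher if 10 counts in all were enough, a rule under which 2.05% of protein-coding genes are called higher. COL24A1 reached 10 counts only through the knockout library, so that call adds nothing to its ratio.

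**Figure D2:**
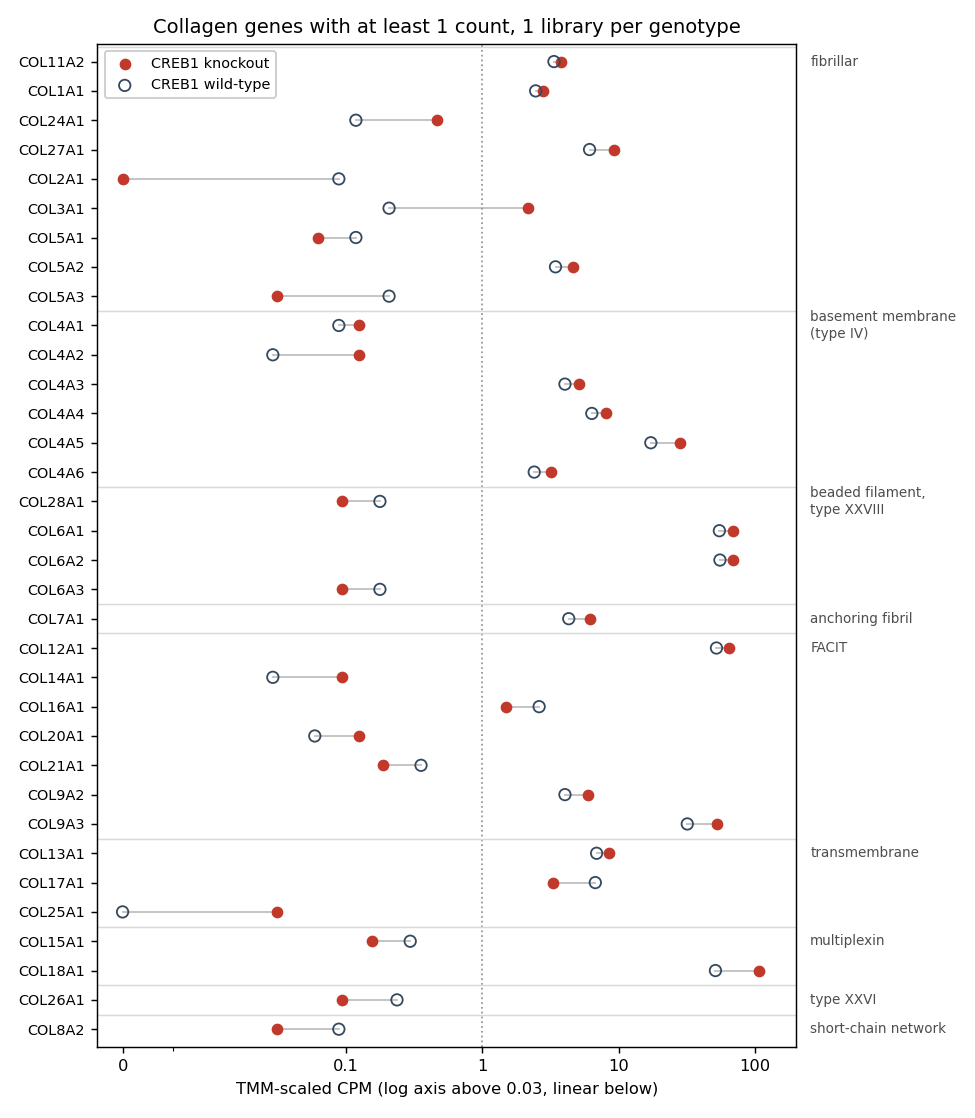
Level of each of the 34 collagen genes with at least 1 count, in TMM-scaled CPM (horizontal axis, logarithmic above 0.03 and linear below), in the CREB1 knockout library (filled) and the CREB1 wild-type library (open), grouped by class. The dotted line marks 1 CPM. COL18A1, COL6A1 and COL6A2 lie farthest to the right, and COL3A1 has the widest gap among genes above 1 CPM in either library.

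Of the 6 type IV collagen genes, 4 were expressed and 0 were called. The intervals of COL4A3, COL4A4 and COL4A5 lay above no difference, and that of COL4A6 included it. The class summed to 1428 counts in the knockout and 1014 in the wild-type library, 1.48-fold (interval 1.37 to 1.61), and COL4A5 gave most of these counts. COL4A5, a chain whose mutation causes Alport syndrome, had 894 counts in the knockout and 579 in the wild-type library, or 28.0 and 17.2 CPM (1.62-fold, interval 1.46 to 1.81). COL4A6, its head-to-head neighbour on chromosome X, whose nearest RefSeq start lies 380 bases away, had 102 and 81 counts in the knockout and wild-type libraries (log2 ratio 0.40, interval -0.03 to 0.85). The number of COL4A5 counts per COL4A6 count was 8.76 in the knockout and 7.15 in the wild-type library, and the interval of the change, 0.887 to 1.69, included no difference. The 19 expressed neighbours of COL4A5 that are not collagens had a median log2 ratio of 0.27, higher than that around most other family members, and 2 of them exceeded its 0.70. The part of this surrounding level in the COL4A5 value was not tested.

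COL4A3 and COL4A4, the partners of COL4A5 in the specialised network of the glomerulus, also lie head to head, on chromosome 2 with starts 419 bases apart. COL4A3 had 164 counts in the knockout and 136 in the wild-type library (log2 ratio 0.34, interval 0.01 to 0.68). COL4A4 had 260 counts in the knockout and 214 in the wild-type library (log2 ratio 0.35, interval 0.09 to 0.62). There were 1.59 COL4A4 counts per COL4A3 count in the knockout and 1.57 in the wild-type library (ratio of the ratios 1.01, interval 0.745 to 1.36).

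The chains of the common basement membrane network were nearly absent. COL4A1 had 4 counts in the knockout and 3 in the wild-type library. COL4A2 had 4 counts in the knockout and 1 in the wild-type library. Their starts lie 127 bases apart on chromosome 13, and at these counts no difference was detectable. HCT116 thus carried RNA for the COL4A3 to COL4A6 chains at levels above 1 CPM and for COL4A1 and COL4A2 at levels below it, in both libraries.

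Type VI collagen, which forms beaded filaments in the pericellular matrix, was the most abundant class. COL6A1 had 2191 counts in the knockout and 1840 in the wild-type library, or 68.5 and 54.7 CPM (1.25-fold, interval 1.18 to 1.33). COL6A2 had 2195 counts in the knockout and 1858 in the wild-type library (1.24-fold, interval 1.17 to 1.32). These neighbours on chromosome 21 had nearly equal counts in each library, and the number of COL6A2 counts per COL6A1 count in the knockout library was 0.992 times that in the wild-type library (interval 0.908 to 1.08). The remaining chain of the usual type VI trimer, COL6A3, had 3 counts in the knockout and 6 in the wild-type library, and the alternative chains COL6A5 and COL6A6 were at 0 in both. COL18A1 lies on the same chromosome, and its count per COL6A1 count was 1.57 in the knockout and 0.936 in the wild-type library, a ratio of 1.67 (interval 1.54 to 1.82). COL28A1, a related gene, had 3 counts in the knockout and 6 in the wild-type library.

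Per kilobase of exon, the same few genes led in both libraries. COL6A1 had 12.8 CPM per kilobase in the knockout and 10.2 in the wild-type library. COL6A2 had 12.7 and 10.3, and COL18A1 had 12.6 and 6.0, in the knockout and wild-type libraries. COL9A3 followed with 10.8 and 6.57, COL12A1 with 5.12 and 4.17 and COL4A5 with 2.36 and 1.45, again knockout before wild-type. COL18A1 therefore stood above COL9A3 in the knockout library and below it in the wild-type library. These 6 genes held 85.4% of collagen counts in the knockout and 82.6% in the wild-type library.

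**Figure D3:**
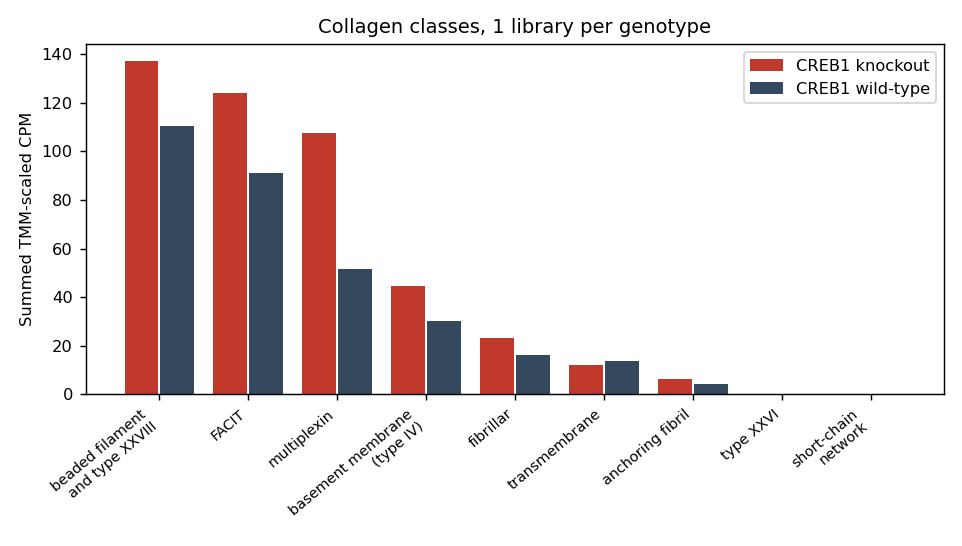
Summed TMM-scaled CPM (vertical axis) of each collagen class in the CREB1 knockout library (left bar) and the CREB1 wild-type library (right bar), with no error bars because there is 1 library of each. The multiplexin bars, almost wholly COL18A1, differ most in relative height among the classes above 1 CPM, and the transmembrane class is the lower one in the knockout library.

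The FACIT genes were led by COL12A1 and COL9A3. COL12A1, a long chain that links fibrils to their surroundings, had 2042 counts in the knockout and 1752 in the wild-type library (1.23-fold, interval 1.15 to 1.31). COL9A3, a chain of the cartilage type IX collagen, had 1676 counts in the knockout and 1071 in the wild-type library, or 52.4 and 31.8 CPM (1.65-fold, interval 1.52 to 1.78). Its 20 expressed neighbours near the end of chromosome 20 had a median log2 ratio of -0.04, and 0 of them exceeded its 0.72. COL9A2 had 190 counts in the knockout and 136 in the wild-type library (log2 ratio 0.55, interval 0.23 to 0.88), while COL9A1, their partner chain, was at 0 in both. There were 8.82 COL9A3 counts per COL9A2 count in the knockout and 7.88 in the wild-type library, and the interval of the change, 0.880 to 1.42, included no difference.

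COL16A1 went the other way. This FACIT gene had 48 counts in the knockout and 88 in the wild-type library, a log2 ratio of -0.79 (interval -1.34 to -0.28) that was not called. It was the second of 2 expressed collagen genes with a ratio below 0. The remaining FACIT genes had few or no counts. COL21A1 had 6 counts in the knockout and 12 in the wild-type library. COL20A1 had 4 and 2 counts, and COL14A1 had 3 and 1, in the knockout and wild-type libraries. COL19A1 and COL22A1 were at 0 in both.

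COL17A1, the transmembrane collagen of hemidesmosomes that ties basal epithelial cells to the basement membrane, was the gene called lower. It had 106 counts in the knockout and 227 in the wild-type library, or 3.31 and 6.75 CPM. This gives a log2 ratio of -1.02 (interval -1.37 to -0.69), which is 2.03-fold lower, so it lies at the edge of the threshold. With total counts in place of TMM the ratio was -0.95 and the gene was no longer called. Its share of collagen counts was 0.729% in the knockout library (interval 0.597% to 0.881%) and 2.13% in the wild-type library (1.86% to 2.42%), and these intervals do not overlap. That share also depends on the collagen sum, which was 1.43-fold higher in the knockout library, so it is not a separate measure of COL17A1. All 20 expressed neighbours on chromosome 10 had higher ratios, with a median of 0.06.

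The other expressed transmembrane gene, COL13A1, a collagen of cell adhesion sites, had 272 counts in the knockout and 232 in the wild-type library (log2 ratio 0.30, interval 0.04 to 0.56). COL25A1 had 1 count in the knockout and 0 in the wild-type library, and COL23A1 was at 0 in both. COL7A1, which forms the anchoring fibrils under epithelia, had 196 counts in the knockout and 145 in the wild-type library (1.42-fold, interval 1.14 to 1.78).

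Of the short-chain network collagens, COL8A2 had 1 count in the knockout and 3 in the wild-type library, and COL8A1 and COL10A1 were at 0 in both. COL26A1 had 3 counts in the knockout and 8 in the wild-type library.

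Together 25 of the 44 genes lay under the expression filter. Of these, 10 had 0 counts in both libraries, which allows at most 0.0962 CPM in the knockout and 0.0869 in the wild-type library (3 counts of the total). The other 15 had at most 15 counts in the knockout and at most 12 in the wild-type library. They summed to 55 counts in the knockout and 70 in the wild-type library, and 6 had the higher scaled level in the knockout against 9 in the wild-type library. At these counts no shared direction can be read.

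**Figure D4:**
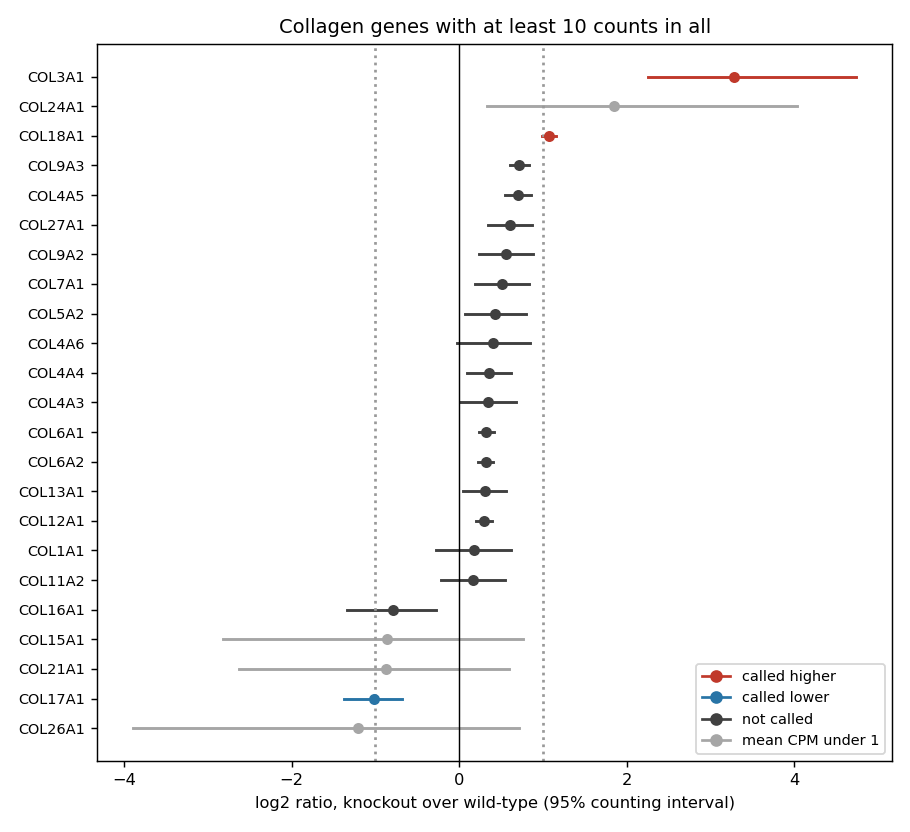
Log2 ratio, knockout over wild-type (horizontal axis), of the 23 collagen genes with at least 10 counts in all, with exact 95% counting intervals (lines). Dotted lines mark 2-fold. COL3A1 and COL18A1 were called higher and COL17A1 lower, most other genes lie between 0 and 1, and the 4 grey genes are under the expression filter.

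Genes that make, move, bind and break down collagen were taken in 6 lists with 73 distinct genes. Of these 47 were expressed, 4 were called higher and 3 lower (background 1.24% and 1.61%), and their median log2 ratio was 0.07, against 0.35 for the collagen genes. Of the 3 called lower, 2 (ADAMTS2 and TIMP3) passed the expression filter only through the wild-type library, so this count supports no statement about the lists. At a mean of at least 5 CPM, a filter for which no background was computed, 0 were called lower. With at least 10 counts in all, 5 genes of the lists were called higher and 6 lower (background 2.05% and 2.95%). The same numbers were called with at least 1 count in all (background 1.89% and 2.89%). Several of these genes reached 10 counts only through the library where they were higher. They were COLGALT2 (14 counts in the knockout and 2 in the wild-type library), P3H2 (7 and 20), TLL1 (4 and 25) and TIMP3 (6 and 65). These numbers therefore support no statement about the lists either. The genes named are those called, the 3 expressed genes with the largest absolute log2 ratios in each list, and some genes at or near 0 counts. By list, the medians were 0.07 over 16 genes of chain modification and folding, 0.03 over 11 of procollagen export and processing and -0.00 over 4 of cross-linking. They were 0.35 over 6 collagen receptor genes, -0.19 over 6 of collagen breakdown and 0.93 over 4 fibril-associated matrix proteins.

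In chain modification and folding, SERPINH1 was called higher. It encodes HSP47, the chaperone of the endoplasmic reticulum that is specific for the collagen triple helix. It had 6248 counts in the knockout and 2973 in the wild-type library (2.21-fold, log2 interval 1.08 to 1.21), and 0 of its 20 expressed neighbours on chromosome 11 had a ratio as high. PLOD3, a lysyl hydroxylase that also glycosylates collagen, had 1064 and 734 counts (log2 ratio 0.61) in the knockout and wild-type libraries. P4HB, a subunit of prolyl hydroxylase and a disulfide isomerase, had 11255 counts in the knockout and 17094 in the wild-type library (log2 ratio -0.53). It lies on the distal long arm of chromosome 17, where its 20 expressed neighbours had a median of -0.50 and 1 of them lay above 0, so its value is close to that of its surroundings.

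Procollagen processing genes went in both directions. ADAMTS14, a protease that removes the amino-terminal propeptide, was 2.58-fold higher, with 1073 counts in the knockout and 437 in the wild-type library. ADAMTS2, which has the same role, was 2.63-fold lower, with 25 counts in the knockout and 70 in the wild-type library (0.782 and 2.08 CPM), and it passed the filter only through the wild-type library. PCOLCE2, an enhancer of the protease that removes the carboxy-terminal propeptide, was 2.18-fold lower, with 65 counts in the knockout and 150 in the wild-type library. In the cross-linking list LOX was at 0 in both libraries, and LOXL3 (log2 ratio -0.63), LOXL2 (0.36) and LOXL1 (-0.01) were not called.

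Among collagen receptors, the tyrosine kinase DDR1 had 6047 counts in the knockout and 3999 in the wild-type library (log2 ratio 0.67, interval 0.61 to 0.73). ITGA2, the integrin chain of the epithelial collagen receptor, had 1428 and 1101 counts (log2 ratio 0.45). ITGA10 had 42 and 31 counts (log2 ratio 0.50), with an interval that included no difference. In the breakdown list TIMP3, a matrix-bound protease inhibitor, was called lower with 6 counts in the knockout and 65 in the wild-type library (9.60-fold, log2 interval -4.86 to -2.16), and it passed the filter only through the wild-type library. MMP14, a membrane-bound collagenase, had 799 counts in the knockout and 440 in the wild-type library (log2 ratio 0.93). It was called higher only with total-count scaling (1.01) or a 1.5-fold threshold, and no background was computed for that scaling. TIMP2 had 364 and 647 counts (log2 ratio -0.76) and lies on distal chromosome 17 too, where the median of its 20 expressed neighbours was -0.61. The interstitial collagenases MMP1, MMP8 and MMP13 had 0 counts in the knockout and at most 2 in the wild-type library.

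Of the fibril-associated matrix proteins, SPARC, a collagen-binding glycoprotein, was called higher with 776 counts in the knockout and 107 in the wild-type library (7.60-fold). Fibronectin, FN1, was called higher with 741 and 319 counts (2.44-fold), and THBS1 (log2 ratio 0.57) was not called. The small proteoglycans that coat fibrils, DCN, LUM, BGN, FMOD and ASPN, had at most 1 count in either library.

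**Figure D5:**
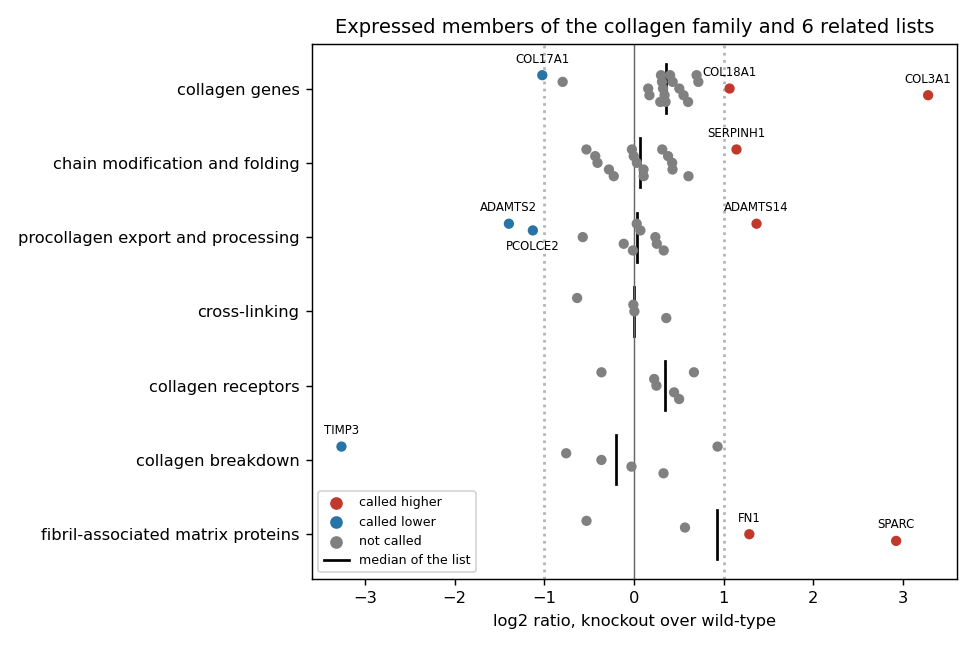
Log2 ratio, knockout over wild-type (horizontal axis), of expressed collagen genes and of expressed genes in 6 lists of collagen-related function, with 1 point a gene, the list median as a vertical bar and dotted lines at 2-fold. The collagen points centre on 0.35, while the lists of chain modification, processing and cross-linking centre near 0, and the called genes are named.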

How the data were processed

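The authors deposited unscaled expected counts of genes for 1 knockout and 1 wild-type library. The submitters' processing notes name RSEM 1.2.26, STAR 2.4.2a, cutadapt 2.0 and build hg19. The annotation release and the strand setting are not stated there. Identifiers were matched, without versions, to GENCODE 29 (GRCh38) for names, biotypes, gene order and exon lengths, and 52338 of 57820 (90.5%) matched. All collagen values were whole numbers. Counts were rounded and scaled by TMM (edgeR 4.0.16, R 4.3.3). Log2 ratios used a prior count of 0.5, and folds are 2 to that power. Intervals are exact conditional binomial 95% intervals (SciPy 1.17.1) without the prior count. They cover counting error only, and read pairs without molecular identifiers are not independent molecules. Alternatives were total-count and DESeq2 1.42.0 scaling, TMM on protein-coding genes, other filters, a 1.5-fold threshold, a prior count of 2 and unrounded values. Exon lengths are those of all annotated exons of a gene, so levels per kilobase are approximate. The members, lists and naming rule were chosen with earlier results of these data known.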

Additional observations from a re-analysis of the deposited data

How the results depend on the processing

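The number of expressed collagen genes above 0 was 17 under each scaling, prior count and rounding tried. With total counts in place of TMM, 0 rather than 1 collagen gene was called lower, the summed collagen fold was 1.51 rather than 1.43, and without COL18A1, an alternative chosen after seeing the data, it was 1.37 rather than 1.31. That scaling raised the median of expressed protein-coding genes by 0.07, and COL17A1 was then at -0.95. No share of all protein-coding genes called was computed for total-count scaling, so its calls have no background beside them. At a mean CPM of at least 5, fewer genes are tested. There 10 collagen genes lay above 0 and only COL17A1 lay below it, because COL16A1 no longer passed. By the 2-fold rule 1 was called higher, COL18A1, and 1 lower, COL17A1. Of the collagen-related lists 0 genes rather than 3 were called lower, with a median of 0.24 rather than 0.07. The share of all protein-coding genes called at this filter was not computed, so these calls have no background beside them. With no filter, or at least 10 counts in all, 5 genes of those lists were called higher and 6 lower. The backgrounds were 1.89% and 2.89% with no filter and 2.05% and 2.95% at 10 counts. Several of these genes reached 10 counts only through the library where they were higher, so these numbers support no statement about the lists. At 1.5-fold, 5 collagen genes were called higher and 2 lower, and in the lists 7 and 5 (background 4.91% and 5.37%). The mean log2 ratio of the collagen genes was 0.46 against a median of 0.35. No paired analysis was possible because each genotype has 1 library, and for the same reason no library could be left out. Depth limits the 25 genes under the filter, for which a difference was mostly not detectable.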

Other observations

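Proteins outside the family that carry a collagen-like domain were looked at as well, from a list of 27 genes chosen after the collagen results had been seen. Of these, 10 were expressed, 0 were called higher and 1 lower (1.24% and 1.61% over expressed protein-coding genes), and the 27 summed to 1792 counts in the knockout and 1917 in the wild-type library. C1QTNF1, a secreted relative of adiponectin, had 3 counts in the knockout and 105 in the wild-type library (log2 ratio -4.85, interval -7.36 to -3.47), and it passed the filter only through the wild-type library. It lies on chromosome 17 among the neighbours of TIMP2. C1QTNF6 had 332 counts in the knockout and 184 in the wild-type library (log2 ratio 0.92), and CTHRC1, a secreted protein with a short collagen repeat, had 208 and 133 counts (log2 ratio 0.72). C1QL4 had 159 counts in the knockout and 302 in the wild-type library (log2 ratio -0.85). The 8 collagen-named genes that are not protein-coding had 25 counts in the knockout and 12 in the wild-type library, mainly from the pseudogene COL6A4P1 with 23 and 10 counts. The antisense genes of COL18A1, COL4A2 and COL5A1 had at most 2 counts in either library.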
